A study of Rattus norvegicus with 8 samples.

Results

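The neurotrophic factors and receptors measured here are 8 genes, namely the ligands Bdnf, Ntf3 and Gdnf and the receptors Ntrk2, Ntrk3, Ngfr, Ret and Gfra1. They were chosen by gene name, taking every array probe that carries one of these names and is not a control spot, which gave 14 of the 30367 probes and 8 of the 26514 gene names on the array. The RNA came from the lumbar L6S1 spinal cord of male Wistar rats that were 12 weeks old, with 1 array per rat. The 4 stressed rats went through water avoidance (WA) stress, a 1 h session on a platform in water on each of 10 days, and the 4 control rats were handled over the same period. Spinal segments were taken on day 11, which was 24 h after the last session, and the meninges had been removed. The labels name no genetic change and no drug for any rat, and each array is a separate animal of its group.

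Neurotrophins are secreted proteins that act on neurons through 2 kinds of receptor. Brain-derived neurotrophic factor, made from Bdnf, binds the receptor tyrosine kinase TrkB, made from Ntrk2, and neurotrophin-3, made from Ntf3, binds mainly TrkC, made from Ntrk3, while the receptor p75, made from Ngfr, binds all neurotrophins. Glial cell line-derived neurotrophic factor, made from Gdnf, binds the membrane-anchored co-receptor made from Gfra1, and the complex activates the receptor tyrosine kinase Ret. In the dorsal horn, where sensory fibres enter the cord, BDNF and TrkB are known for raising the excitability of pain pathways, and GDNF is known for supporting motor neurons and a class of sensory neurons.

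Each probe is 60 bases long and reads a short stretch of a transcript, and the files assign each probe to 1 transcript. The first 30 bases of the probes on which the comparisons below turn are given 5′ to 3′ in lower case, because the probes of Ntrk2 and Ret are assigned to different transcript variants and did not all differ in the same direction. Positions refer to the rn4 assembly, as the array files give them. Whether a probe lies in an exon of the coding part or in a UTR, and whether it also reads other variants of its gene, was not analysed here, since no genome or gene model of that assembly was used. The Bdnf probe lies on chr3_random:979381-979440 (+ strand) and the Ngfr probe on chr10:84263082-84263141 (- strand). The 4 Ntrk2 probes lie on the - strand of chromosome 17, and the 3 Ret probes on the - strand of chromosome 4. Where the files assign a probe to a transcript variant, its number is given with the base of the transcript at which the probe starts.
Bdnf: ctgctatatgctaactttttgcagcttcat
Ngfr: gagaccaggagcattgtacgcatacgcggg
Ntrk2 variant 1, base 3058: aagaacatccacacactccttcagaacttg
Ntrk2 variant 1, base 3970: aggacctttctgaggaggacacagaatgtt
Ntrk2 variant 2, base 3610: cctttctgaaaaggtagtttatctttaggg
Ntrk2 variant 3, base 4281: ggaagactgtgcaaacattatactcctgaa
Ret variant 1, base 1823: aagccggctatggcatctgcaactgtttcc
Ret variant 1, base 4934: gcttatttcagcatataatatggctttagt
Ret variant 2, base 3868: cagtaaacacggttcttgccaaaactcctc

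The level of a probe is its relative log2 signal, the log2 of the background-subtracted fluorescence intensity minus the 75th percentile of the array, so that 0 is a bright probe and each unit below is a 2-fold weaker signal. Levels of different probes are not comparable, because probes bind with different strength. Differences are stressed minus control on the log2 scale, with the standard error (SE) of a limma fit over all 23677 tested probes and a p with Benjamini-Hochberg adjustment over the same probes. The tested probes are those with a signal well above background on 4 or more arrays, whatever the group. Exact p values come from all 70 ways to choose 4 of the 8 arrays, are two-sided, and cannot be below 0.0286.

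All 8 arrays lay on 1 slide, with stressed rats in row 1 and control rats in row 2, so slide row and stress cannot be told apart. The number of probes well above background was 22998 to 24064 per array. The 5′ minus 3′ difference of an array is a median over 1787 transcripts. For each transcript, the log2 signal of its tested probe nearest the 3′ end was subtracted from that of its tested probe nearest the 5′ end. The mean of the result over the 8 arrays was then subtracted, so the values only compare these arrays with one another. The median was between -0.31 and -0.18 in control replicates 1, 3 and 4, and between 0.09 and 0.17 in the stressed rats. Control replicate 2 stood apart from its group at 0.23, and on the first principal component it lay with the stressed rats. Results that rest on this array are therefore also given without it. Markers of the cells of spinal cord passed the filter for 8 of 9 neuronal genes, 8 of 8 astrocyte genes, 8 of 8 oligodendrocyte genes and 7 of 7 microglial genes.

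No neurotrophic factor or receptor passed an adjusted p of 0.1. Of the 14 probes, 12 were tested, which cover 6 of the 8 genes, and 0 of them were called by limma, against 3.74% of all tested probes. At an unadjusted p under 0.05 there were 2, Ngfr and the variant 2 probe of Ntrk2, where all tested probes gave 20.3%. The stressed and control rats did not overlap at 1 of the 12 probes, Ngfr, which was lower in stressed rats. Over all tested probes the groups did not overlap at 12.1%, and at 5.44% they did not overlap with the stressed rats lower. Of the 12 probes 8 were lower in stressed rats and 4 higher. The median difference over the 6 tested genes, each by its brightest probe, was -0.10, and the median over all tested probes was 0.06.

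**Figure D1:**
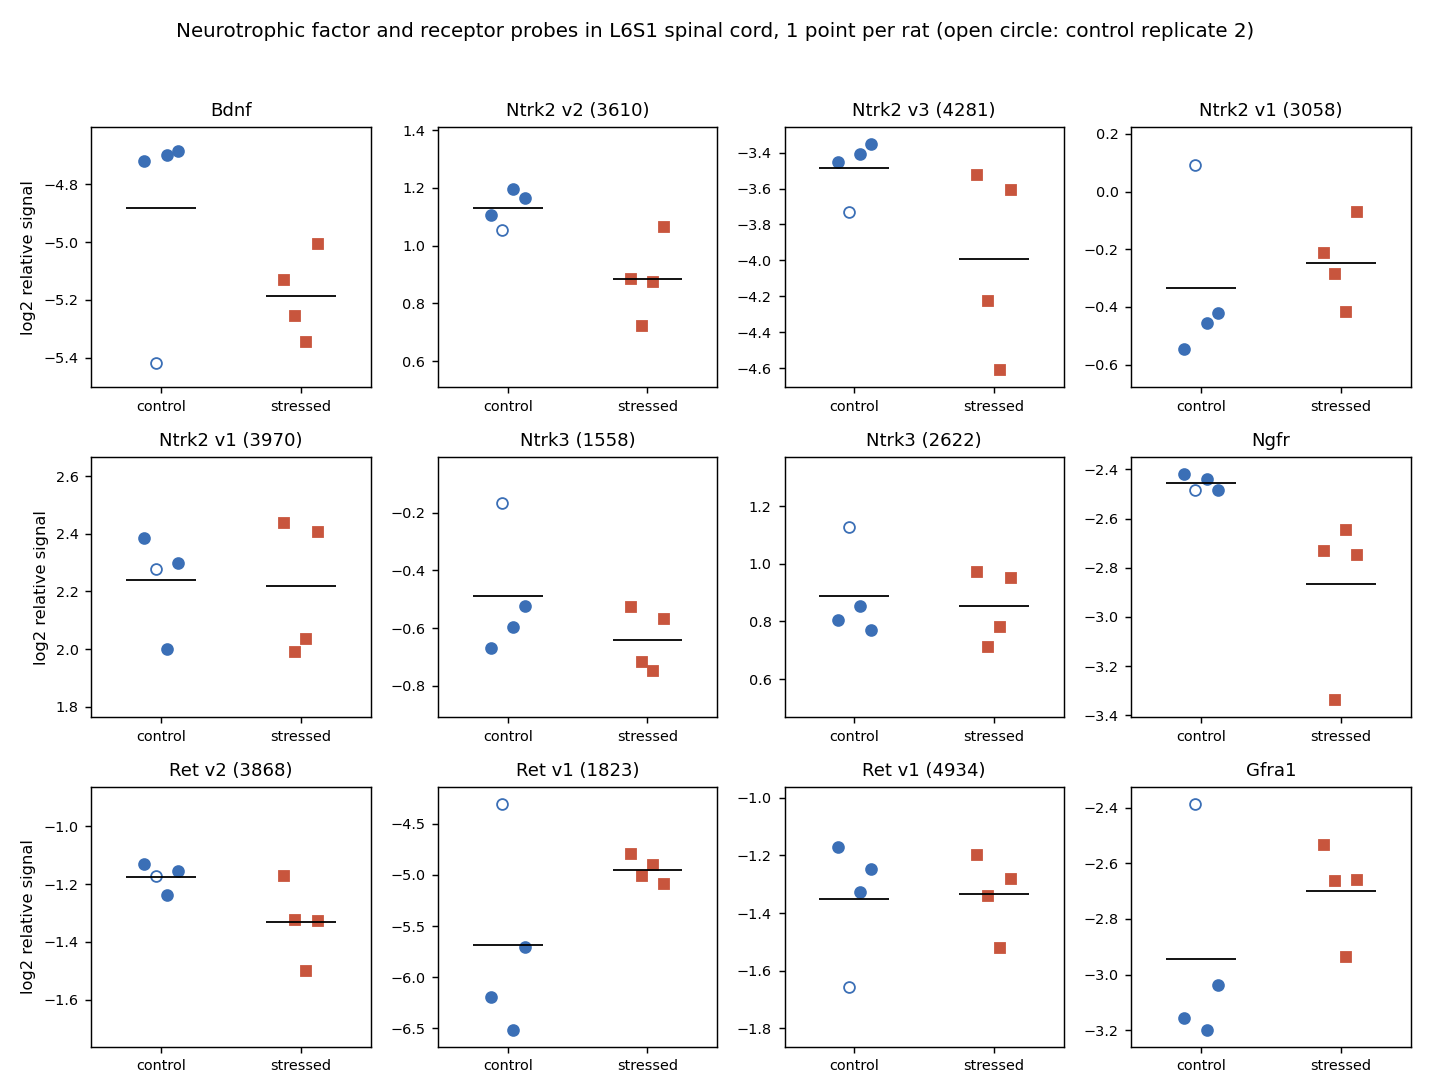
Relative log2 signal (vertical axis, a separate scale in each panel) of the 12 tested probes in the 4 control rats (circles) and the 4 stressed rats (squares), with lines at the group means and control replicate 2 as an open circle. Labels in brackets give the base of the transcript at which the probe starts, and v the transcript variant. Ngfr is the only one of these panels in which every stressed rat lies below every control rat, and control replicate 2 lies far from the other controls for Bdnf, Gfra1 and the Ret probe at base 1823.

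Among the ligands, Bdnf was the only one measured well above background on all arrays. Its probe was faint, with an intensity from 43.5 in control replicate 2 to 90.9 in control replicate 4. Its relative log2 signal was -4.72, -5.42, -4.70 and -4.69 in control replicates 1 to 4, and -5.13, -5.26, -5.35 and -5.01 in stressed replicates 1 to 4. In 3 of the 4 controls Bdnf was thus above every stressed rat, and control replicate 2 was the lowest of all 8. The difference was -0.31 (SE 0.18, 95% confidence interval -0.72 to 0.11, limma adjusted p = 0.358, exact permutation p = 0.143). The 10 spots of the probe differed within an array by a median SD of 0.15, beside an SD of 0.15 between stressed rats and of 0.36 between control rats, the latter with control replicate 2 far from the other 3. Without control replicate 2 the difference was -0.48 (SE 0.09, limma adjusted p = 0.00735), at a setting in which 42.4% of all tested probes were called. It was -0.07 with normexp background correction and -0.50 with quantile normalization (limma adjusted p = 0.913 and 0.339). With the 5′ minus 3′ difference of the array as a covariate it changed sign, to 0.10 (limma adjusted p = 0.644). Bdnf was high where the 5′ minus 3′ difference was low, in 3 controls, and lowest in control replicate 2, where that difference was highest, and their relation was not tested.

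Ntf3, the ligand of TrkC, was near the limit of the array. Its probe, on the - strand of chr4:162436573-162436632, was well above background on 2 control arrays and on 0 stressed arrays, and was not tested. The measured values were -7.19, -7.36, -6.84 and -8.05 in control rats and -7.91, -7.44, -7.95 and -7.87 in stressed rats, so the groups overlapped. The means were -7.36 in control rats and -7.79 in stressed rats (exact permutation p = 0.229), and no fold is given, since the level of neither group was measured on all its arrays. Gdnf, the ligand of Gfra1 and Ret, was not well above background on any array with its probe at chr2:57423957-57424016 (+ strand). It gave values from -8.84 to -7.87 in control rats and from -8.63 to -7.32 in stressed rats.

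Of the receptors, Ngfr was the one with a probe at which the groups did not overlap. The relative log2 signal was -2.42, -2.48, -2.44 and -2.48 in control rats and -2.73, -3.34, -2.65 and -2.75 in stressed rats. The controls lay close together, and all 4 stressed rats lay below them. The difference was -0.41 (SE 0.15, 95% confidence interval -0.76 to -0.07, limma adjusted p = 0.197), which is a 1.33-fold higher signal in control rats. The exact permutation p was 0.0286, the smallest this design allows. Any probe without overlap has this p, as 12.1% of all tested probes did, and it was not adjusted over probes. The signal varied more between stressed rats (SD 0.32, n = 4) than between control rats (SD 0.03, n = 4), and over the 10 spots of the probe the median SD within an array was 0.07. Stressed replicate 2 was the lowest, and without it the difference was -0.25 (limma adjusted p = 0.245). Without control replicate 2 it was -0.42 (limma adjusted p = 0.0965), and with the 5′ minus 3′ covariate -0.38 (limma adjusted p = 0.321).

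In spinal cord samples p75 is also made by Schwann cells of the nerve roots, so their marker genes are given beside Ngfr. Of 6 Schwann cell markers 5 were on the array and tested, and 0 were called. Their mean relative log2 signal was 1.73, 0.37, 0.19 and -2.03 in control rats and -1.75, -0.54, 0.71 and -1.12 in stressed rats. The difference was -0.74 (exact permutation p = 0.457). The relation of Ngfr to these markers, and the part of Schwann cells in the Ngfr difference, were not tested. The mean signal of the other marker lists differed by -0.05 for motor neurons, 0.04 for neurons, 0.22 for astrocytes, 0.36 for oligodendrocytes and 0.04 for microglia. It differed by -0.07 for sensory ganglion neurons, -0.45 for meninges and fibroblasts, 0.13 for endothelium, -0.16 for red blood cells and -0.12 for skeletal muscle. The lowest exact permutation p of these was 0.0571, for oligodendrocytes. Of 62 tested markers limma called 2 higher in stressed rats and 1 lower, beside 3.74% of all tested probes called. They were Mog of oligodendrocytes (0.90, adjusted p = 0.0721) and Pecam1 of endothelium (0.40, adjusted p = 0.0927), both higher, and Tnnt3 of skeletal muscle (-1.10, adjusted p = 0.0765), lower. Their lists went in both directions, with 6 oligodendrocyte markers higher and 2 lower, 4 endothelial markers higher and 1 lower, and 1 muscle marker higher and 2 lower. In bulk tissue such as this, fewer cells of a type and less RNA per cell cannot be told apart.

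Ntrk2 has 4 probes, assigned to 3 transcript variants, and none was called. As background, Ntrk2 makes a full-length TrkB with a kinase domain and shorter forms without it, the latter abundant in astrocytes, and the files do not say which protein variants 2 and 3 encode. The probes of variants 2 and 3, at chr17:11680049-11680108 and chr17:11734704-11734763, lie 184 kb and 239 kb upstream in the direction of transcription of the variant 1 probe at base 3058. At the variant 2 probe the relative log2 signal was 1.11, 1.05, 1.20 and 1.17 in control rats and 0.88, 0.72, 0.87 and 1.06 in stressed rats. Only stressed replicate 4 overlapped with the controls, by a narrow margin. The difference was -0.24 (SE 0.09, 95% confidence interval -0.45 to -0.04, limma adjusted p = 0.190, exact permutation p = 0.0571), and -0.27 without control replicate 2 (limma adjusted p = 0.0515).

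At the variant 3 probe of Ntrk2 the relative log2 signal was -3.45, -3.73, -3.41 and -3.35 in control rats and -3.53, -4.22, -4.61 and -3.61 in stressed rats. Stressed replicates 2 and 3 lay below all controls and the other two lay within them. The difference was -0.51 (SE 0.24, limma adjusted p = 0.281), and its confidence interval of -1.07 to 0.06 included 0. It was -0.30 without stressed replicate 3, -0.29 with normexp background correction and -0.31 with the 5′ minus 3′ covariate (limma adjusted p from 0.476 to 0.621). The variant 1 probes differed by less. At base 3058 the signal was -0.55, 0.09, -0.46 and -0.42 in control rats and -0.21, -0.29, -0.42 and -0.07 in stressed rats, a difference of 0.09 (SE 0.15, limma adjusted p = 0.761). Without control replicate 2, the highest of the 8, the same probe was higher in stressed rats by 0.23 (limma adjusted p = 0.0978), and with the 5′ minus 3′ covariate the difference was -0.21 (limma adjusted p = 0.376). At base 3970 the groups covered the same range, with 2.38, 2.28, 2.0 and 2.30 in control rats and 2.44, 1.99, 2.03 and 2.41 in stressed rats, and the difference was -0.02 (SE 0.14, limma adjusted p = 0.934).

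**Figure D2:**
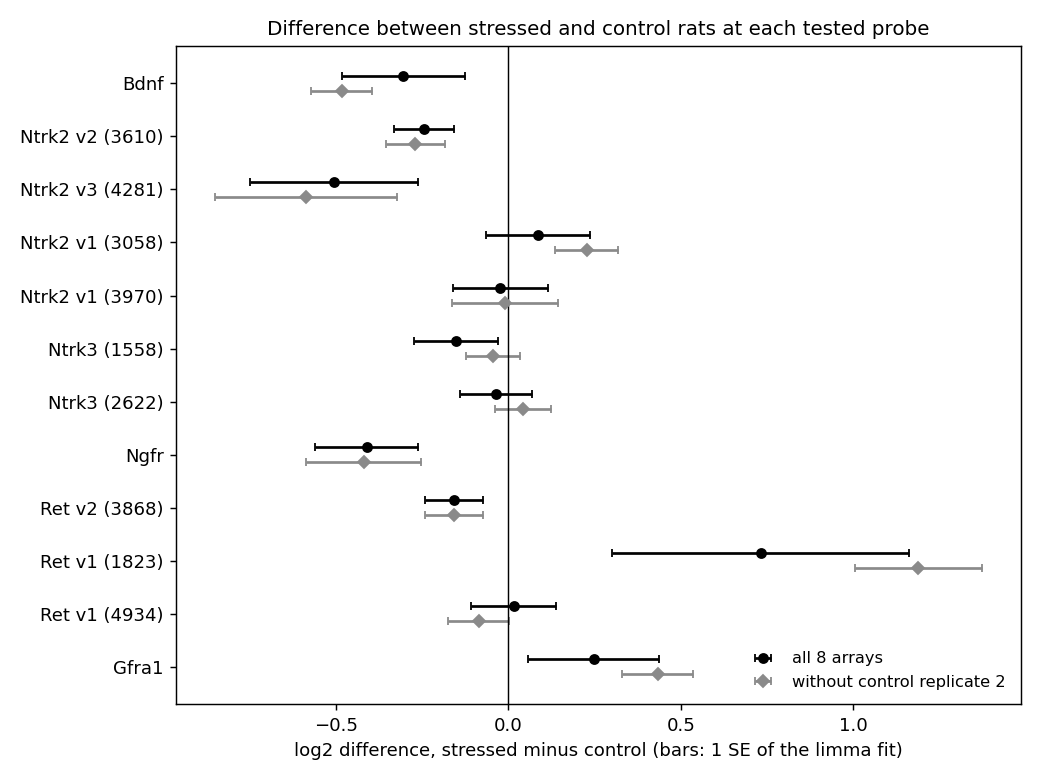
Difference between stressed and control rats (horizontal axis, log2, stressed minus control) at each tested probe, with all 8 arrays (circles) and without control replicate 2 (diamonds), and bars of 1 SE of the limma fit. The Ntrk2 probes of variants 2 and 3 lie to the left of 0 at -0.24 and -0.51, while those of variant 1 lie at 0.09 and -0.02. The Ret probe at base 1823 moves from 0.73 to 1.19 when control replicate 2 is left out.

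Probes of 1 gene can be compared within an array, where the scaling cancels. The 5′ minus 3′ difference of an array need not cancel, since it is itself a difference between probes of a transcript. The pairs were not fitted with it as a covariate. With that covariate the single Ntrk2 probes differed by -0.31 (variant 3), -0.18 (variant 2), -0.21 (base 3058) and -0.05 (base 3970), with limma adjusted p from 0.364 to 0.908. This was done for 10 probe pairs in Ntrk2, Ntrk3 and Ret, and the smallest exact p after Benjamini-Hochberg adjustment over them was 0.214. The variant 3 minus variant 1 (base 3970) difference of Ntrk2 was -5.73 ± 0.26 in control rats and -6.21 ± 0.31 in stressed rats (SD, n = 4 each), a shift of -0.48 (exact permutation p = 0.0571, adjusted 0.214). Against the base 3058 probe variant 3 shifted by -0.59 (exact permutation p = 0.0857, adjusted 0.214) and variant 2 by -0.33 (exact permutation p = 0.143, adjusted 0.238). Controls 1, 3 and 4 lay above all stressed rats in both of these, and control replicate 2 lay among or below the stressed rats. Without it the shifts were -0.81 and -0.50. The shift of variant 2 against base 3970 was -0.22 (exact permutation p = 0.171, adjusted 0.245).

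**Figure D3:**
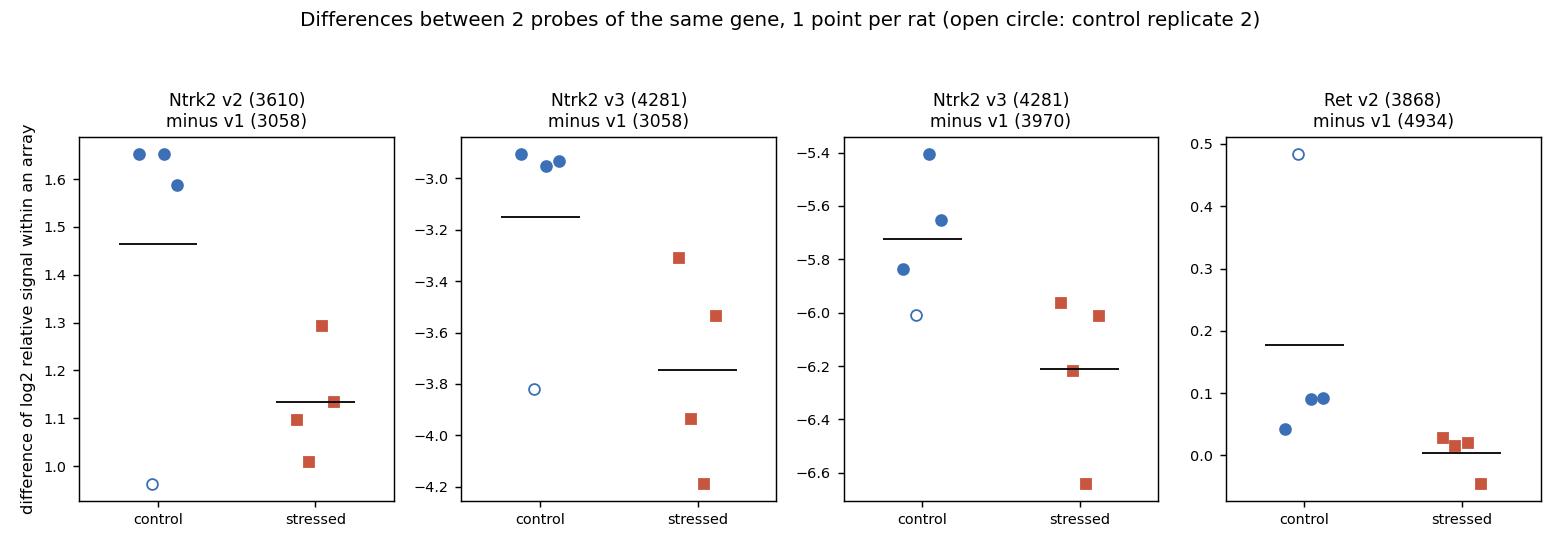
Difference in log2 relative signal between 2 probes of the same gene within each array (vertical axis, a separate scale in each panel) for 3 pairs of Ntrk2 probes and 1 pair of Ret probes, with control rats as circles, control replicate 2 as an open circle, stressed rats as squares and lines at the group means. In the first panel control replicate 2 lies below the stressed rats and in the second among them. In the Ret panel all stressed rats lie below all controls, and control replicate 2, at 0.48, is far above the other controls.

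Ntrk3, the TrkC gene, has 2 tested probes on the - strand of chromosome 1, starting at bases 1558 and 2622 of the transcript. At base 1558 the relative log2 signal was -0.67, -0.17, -0.60 and -0.52 in control rats and -0.53, -0.72, -0.75 and -0.57 in stressed rats, a difference of -0.15 (SE 0.12, limma adjusted p = 0.492). At base 2622 it was 0.81, 1.13, 0.85 and 0.77 in control rats and 0.97, 0.71, 0.78 and 0.95 in stressed rats, a difference of -0.04 (SE 0.11, limma adjusted p = 0.860). The groups overlapped at both probes, and control replicate 2 was the highest of the 8 at each. The difference at base 1558 was -0.39 with the 5′ minus 3′ covariate (limma adjusted p = 0.0793) and -0.04 without control replicate 2 (limma adjusted p = 0.695). The 95% confidence interval at base 2622 was -0.28 to 0.21, so a change within these bounds, in either direction, is not settled by 4 rats a group.

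Ret, the receptor tyrosine kinase of the GDNF family, is measured by 3 probes with differences of -0.16, 0.02 and 0.73, none of them called. The variant 2 probe gave -1.13, -1.17, -1.24 and -1.16 in control rats and -1.17, -1.33, -1.50 and -1.33 in stressed rats. Here 3 stressed rats lay below all controls, and the difference was -0.16 (SE 0.08, 95% confidence interval -0.35 to 0.03, limma adjusted p = 0.317, exact permutation p = 0.0571), and -0.10 without stressed replicate 3 (limma adjusted p = 0.535). The variant 1 probe near the 3′ end, at base 4934, gave -1.17, -1.66, -1.33 and -1.25 in control rats and -1.20, -1.34, -1.52 and -1.28 in stressed rats, a difference of 0.02 (SE 0.12, limma adjusted p = 0.953). Within arrays, variant 2 minus variant 1 at base 4934 was lower in every stressed rat than in any control, by -0.17 (exact permutation p = 0.0286, adjusted 0.214), and by -0.07 without control replicate 2.

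The other variant 1 probe of Ret, at base 1823, gave -6.19, -4.31, -6.52 and -5.71 in control rats and -4.80, -5.01, -4.90 and -5.09 in stressed rats. Controls 1, 3 and 4 lay below all stressed rats and control replicate 2 above them. The probe was faint, with an intensity from 25.2 in control replicate 3 to 92.9 in control replicate 2, though well above background on all arrays. The difference was 0.73 (SE 0.43, limma adjusted p = 0.362). Without control replicate 2 it was 1.19 (SE 0.19, limma adjusted p = 0.00422), without control replicate 3 it was 0.45 (limma adjusted p = 0.650), with normexp background correction 0.24 (limma adjusted p = 0.739), and with the 5′ minus 3′ covariate -0.35 (limma adjusted p = 0.159). This probe lies farther from the 3′ end of the transcript than the probe at base 4934, and its level was higher on the arrays with the higher 5′ minus 3′ difference. All stressed rats and control replicate 2 lie above 0 on that measure and the other controls below 0, so it largely coincides with the groups. The relation of the level of this probe to that measure, and to the position of the probe, was not tested.

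Gfra1, the co-receptor that binds GDNF, was measured by a probe on the - strand of chr1:264616404-264617205, an interval longer than the probe. The relative log2 signal was -3.16, -2.39, -3.20 and -3.04 in control rats and -2.53, -2.66, -2.94 and -2.66 in stressed rats. All stressed rats lay above controls 1, 3 and 4 and below control replicate 2. The difference was 0.25 (SE 0.19, 95% confidence interval -0.19 to 0.68, limma adjusted p = 0.473). Without control replicate 2 it was 0.43 (SE 0.10, limma adjusted p = 0.0197), without control replicate 3 it was 0.16 (limma adjusted p = 0.741), with quantile normalization 0.11 (limma adjusted p = 0.702), and with the 5′ minus 3′ covariate -0.16 (limma adjusted p = 0.504). Over the 12 probes, leaving out control replicate 2 gave 6 calls, 3 lower (Bdnf, Ngfr and Ntrk2 variant 2) and 3 higher (Ntrk2 variant 1 at base 3058, Ret variant 1 at base 1823 and Gfra1), beside 11.9% of all tested probes called lower and 30.5% called higher at that setting.

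**Figure D4:**
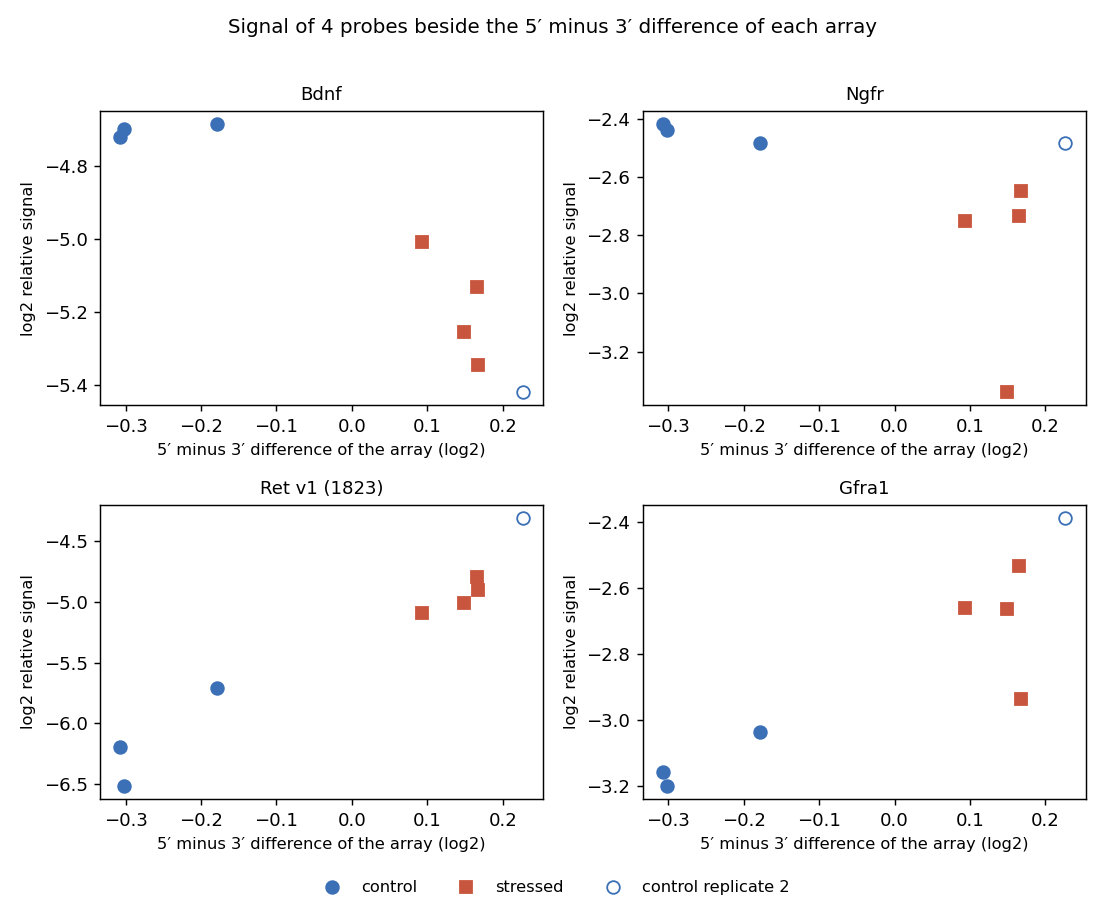
Relative log2 signal (vertical axis) against the 5′ minus 3′ difference of the array (horizontal axis, log2) for Bdnf, Ngfr, the Ret probe at base 1823 and Gfra1, with control rats as filled circles, control replicate 2 as an open circle and stressed rats as squares. Control replicate 2, at 0.23 on the horizontal axis, lies beyond the stressed rats for Bdnf, Ret and Gfra1, and with the other controls for Ngfr, at -2.48.

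The other genes of neurotrophic signalling were taken from 6 lists with 59 genes, of which 55 were on the array and 53 were tested by their brightest probe. Of these, 5 rose, 1 fell and 47 did not pass an adjusted p of 0.1 (3.74% of all tested probes were called), and the median difference was 0.01 against 0.06 over all tested probes. The list of other neurotrophic factors held 3 of those that rose, out of 5 tested. Ptn, the gene of the heparin-binding growth factor pleiotrophin, had the largest rise, from 0.07, 1.18, 0.26 and 0.60 in control rats to 1.58, 1.80, 1.74 and 1.51 in stressed rats, a difference of 1.13 (SE 0.23, limma adjusted p = 0.0721). Cdnf and Manf, which make a pair of related factors resident in the endoplasmic reticulum, rose by 0.82 (SE 0.16, limma adjusted p = 0.0697) and 0.45 (SE 0.08, limma adjusted p = 0.0634). For all 3 genes every stressed rat lay above every control. With the 5′ minus 3′ covariate the difference of Ptn was 0.59 (limma adjusted p = 0.0515), that of Manf 0.35 (limma adjusted p = 0.0846), and that of Cdnf 0.68, no longer called (limma adjusted p = 0.118). With normexp background correction Ptn was at 1.08 and not called (limma adjusted p = 0.105). Cntf, ciliary neurotrophic factor, differed by -0.19 (limma adjusted p = 0.541), the lowest value of that list.

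Among 7 tested response genes of Trk and Ret signalling, 2 rose and 1 fell. Spry2, a feedback inhibitor of receptor tyrosine kinase signalling, went from -2.32, -1.78, -2.07 and -1.88 in control rats to -1.34, -1.31, -1.20 and -1.33 in stressed rats, a rise of 0.71 (SE 0.12, limma adjusted p = 0.0558). Nptx2, which encodes a secreted pentraxin of excitatory synapses, rose by 0.59 (SE 0.14, limma adjusted p = 0.0977). Vgf, a neuropeptide precursor, fell from 3.55, 3.68, 3.58 and 3.50 to 3.25, 3.30, 3.30 and 3.33, a difference of -0.28 (SE 0.07, limma adjusted p = 0.0927). With the 5′ minus 3′ covariate Nptx2 was no longer called (0.42, limma adjusted p = 0.210), and with normexp background correction neither Nptx2 (limma adjusted p = 0.140) nor Vgf (limma adjusted p = 0.153) was. Ptn, Cdnf, Manf, Spry2, Nptx2 and Vgf lost the call when any array other than control replicate 2 was left out, with the exception of Cdnf without control replicate 1 (limma adjusted p = 0.0865). In those fits only 0 to 72 of all 23677 tested probes were called, so the loss is not particular to these genes. Over all alternatives the directions of these genes held, and the highest adjusted p of each lay between 0.207 and 0.268.

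No gene of the remaining lists passed an adjusted p of 0.1 with all 8 arrays. In the list of neurotrophin ligands, processing enzymes and receptors (9 tested) the lowest difference was -0.19 for Pcsk1, a prohormone convertase (limma adjusted p = 0.568). In the GDNF family list (8 tested) the largest differences were 0.53 for Pspn, the ligand persephin (limma adjusted p = 0.169), and -0.29 for Sorl1, a sorting receptor (limma adjusted p = 0.111). Among p75 partners (9 tested) they were 0.42 for Maged1 (limma adjusted p = 0.203) and -0.38 for Nradd (limma adjusted p = 0.268). Among adaptors of Trk and Ret (15 tested) they were 0.83 for Ptpn11, which encodes the phosphatase SHP2 (limma adjusted p = 0.189), and -0.30 for Dok4 (limma adjusted p = 0.176). Without control replicate 2, 18 of the 53 genes were called higher and 7 lower, beside 30.5% and 11.9% of all tested probes. They include Ptpn11 at 1.14 (limma adjusted p = 0.00110), Pspn at 0.70 (0.00406), Maged1 at 0.57 (0.00416), Sorl1 at -0.32 (0.00920), Nradd at -0.52 (0.0289) and Dok4 at -0.31 (0.0587). With array weights 21 were called higher and 11 lower, where 11983 of all 23677 tested probes were called (69.3% of them higher). With the 5′ minus 3′ covariate 4 were called higher and 5 lower, where 2345 of all tested probes were called (49.0% of them higher). None of Ptpn11, Pspn, Maged1, Sorl1, Nradd and Dok4 was called with the covariate (limma adjusted p from 0.180 to 0.898).

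**Figure D5:**
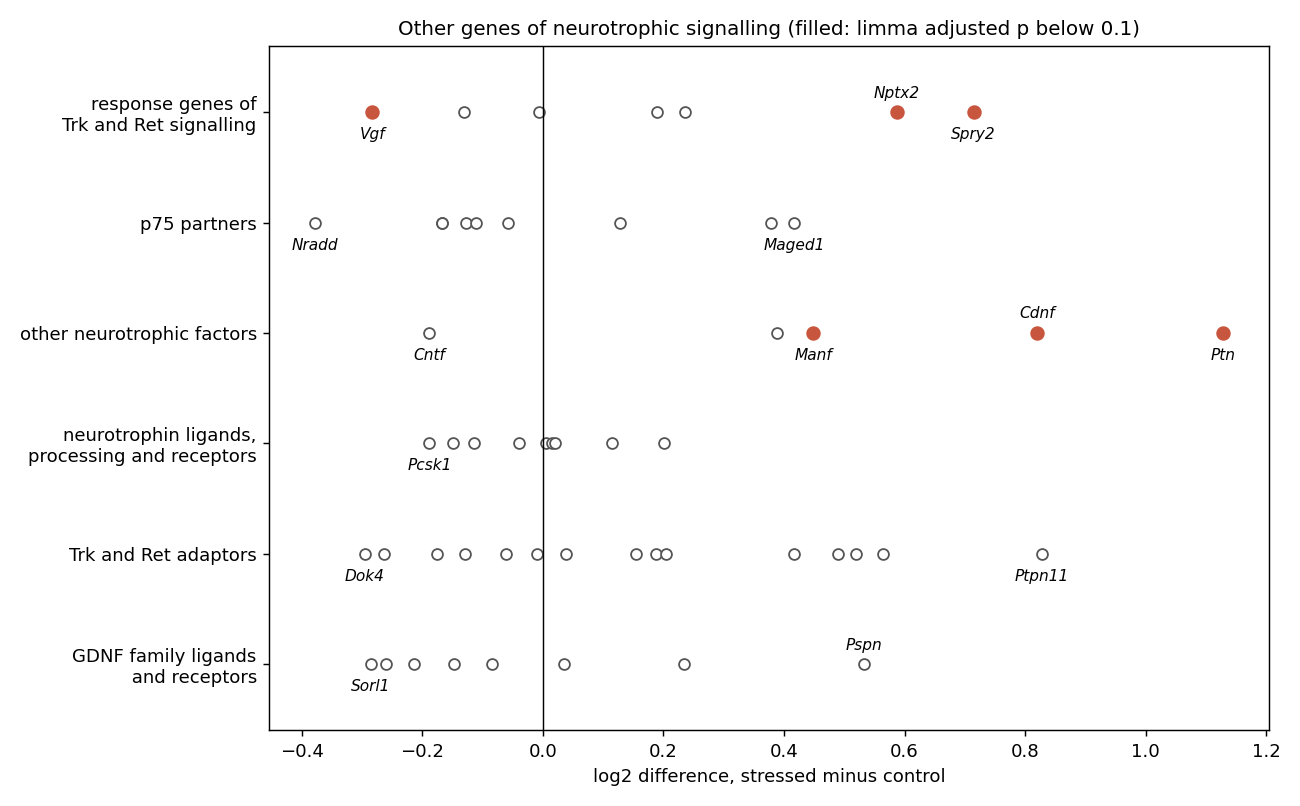
Difference between stressed and control rats (horizontal axis, log2, stressed minus control) of the 53 tested genes of neurotrophic signalling in 6 lists, 1 point per gene by its brightest probe, filled where the limma adjusted p was below 0.1. The 6 filled points are Vgf at -0.28 and Manf, Nptx2, Spry2, Cdnf and Ptn between 0.45 and 1.13.

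The patterns of the genes over the 8 arrays were set against 15925 tested probes of other named genes, as a description in which all points share the same arrays. The closest to Bdnf was Pfdn1 (Pearson r = 0.99, Spearman rho = 0.98), and 567 probes had an r above 0.9 with Bdnf. The closest to Gfra1 was Glra3 (r = 0.99, rho = 1), with 698 probes above 0.9. For the other receptors fewer probes were as alike. Ngfr was closest to Kcnn4 (r = 0.95, rho = 0.88) with 15 probes above 0.9, Ret variant 2 to Nop2 (r = 0.97, rho = 0.95) with 76, Ntrk3 at base 2622 to Atxn2l (r = 0.96, rho = 0.95) with 36, and Ntrk2 variant 1 at base 3970 to Lrrc20 (r = 0.92, rho = 0.81) with 6. Bdnf and Gfra1 had the most look-alike probes, and for both control replicate 2 lay beyond the stressed rats. The relation of these patterns to the 5′ minus 3′ difference was not tested, and that difference largely coincides with the groups.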

How the data were processed

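Total RNA of 8 spinal cords was hybridised to 1-colour Agilent arrays. The authors' scanner files give, for each spot, a processed signal intensity that Agilent Feature Extraction 10.7.3.1 made by background subtraction and detrending, and the deposited table of values holds the same intensity rounded (largest difference 0.05). The study names dChip for later steps and no test for the arrays. Here each array's 75th percentile was subtracted from its log2 intensity, outlier spots were left out and spots of a probe were averaged. The groups were fitted by lmFit and eBayes of limma 3.58.1 without a covariate, under R 4.3.3 with version 1.17.8 of the data.table package, and an adjusted p below 0.1 counted as a call. A probe counted as well above background where at least 0.5 of its spots were. The code of the fit was tried on simulated data with independent noise at each probe. Those data held no difference shared across an array, so they do not bear on the effect of control replicate 2. Arrays give no counts, so their number limits the precision. Probe names and positions are those of the files.

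The named genes are all 8 members with every probe, the called genes and the largest rise and fall of each list, and the closest gene to each member by Pearson r. Members and lists were chosen with earlier results of these data known. Motor neuron, neuron, astrocyte, oligodendrocyte, microglia, Schwann cell, sensory ganglion, meningeal, endothelial, red blood cell and muscle markers were summarised per array. The alternatives were normexp background correction (offset 50), quantile normalization, the value table, no filter, a signal above background required on all 8 arrays, robust variances with a trend, array weights, replicate number as a block, the 5′ minus 3′ difference (probes at least 300 bases apart) as a covariate, the mean over a gene's probes, and leaving out each array. No column of per-sample values was left unmatched. The miRNA arrays were not analysed here, and 2 genes of the lists are not reported here by name.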

Additional observations from a re-analysis of the deposited data

Results flagged for a closer look

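In groups of 4 rats, a single rat far from the other 3 was looked for at each of the 14 probes and in the 10 probe pairs, by dividing its gap to the nearest rat by the range of the group. Of 48 groups, 7 passed Dixon's 95% critical value for 4 samples, where chance gives about 1 in 20. Control replicate 2 was the distant rat in 4 of these: Bdnf in control rats (0.954), Ntrk2 variant 2 minus variant 1 at base 3058 (0.906), Ntrk2 variant 3 minus variant 1 at base 3058 (0.950), and Ret variant 2 minus variant 1 at base 4934 (0.885). Stressed replicate 2 was the distant rat for Ngfr (0.852) and for Ntf3 (0.839), and stressed replicate 4 for Ret variant 2 minus variant 1 at base 4934 (0.843).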

How the results depend on the processing

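The count of probes called among all 23677 (885 in the reported fit, 74.0% of them higher in stressed rats) was 215 with normexp (88.4% higher), 1180 with quantile normalization (58.1% higher), 3010 without a filter (85.2% higher), 11983 with array weights and 2345 with the 5′ minus 3′ covariate (49.0% higher). Leaving out 1 array gave 0 to 10038 calls, with the highest count without control replicate 2. The count of neurotrophic probes called (0) became 7 with array weights, where control replicate 2 had a weight of 0.107, and 1 with the covariate, and 0 to 6 without 1 array. The count of neurotrophic probes whose groups do not overlap was 1 in the reported fit, beside 12.1% of all tested probes. It became 2 with normexp and with quantile normalization, and 1 to 7 without 1 array. The 7 came without control replicate 2, where the groups did not overlap at 43.8% of all tested probes. That share was not taken for the other alternatives. The median difference of the genes stayed between -0.16 and -0.06 under all alternatives.

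Replicate numbers do not pair the rats in the labels, and the deviations of same-numbered rats correlated at 0.10, 0.12, -0.09 and 0.31. With a replicate block 0 of all probes and 0 neurotrophic probes were called (4292 probes at an unadjusted p under 0.05).

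Signs changed for 7 of the 12 probes, the cause of which was not tested. With the covariate Bdnf became 0.10, Ntrk2 at base 3058 -0.21, Ret at base 1823 -0.35 and Gfra1 -0.16. Ntrk2 at base 3970 became 0.019 with array weights, and without 1 array it ranged from -0.10 to 0.052. Ntrk3 at base 2622 became 0.0022 with array weights, and without 1 array it ranged from -0.076 to 0.043. Ret at base 4934 became -0.010 with normexp, -0.023 with quantile normalization and -0.041 with array weights, and without 1 array it ranged from -0.087 to 0.077. Ngfr, Ntrk2 variants 2 and 3, Ntrk3 at base 1558 and Ret variant 2 were lower in stressed rats in all 18 fits.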
